A study of Mus musculus with 36 samples.

Results

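The genes described here were 10 members of the AP-1 and immediate early group, Fos, Fosb, Fosl1, Fosl2, Jun, Junb, Jund, Egr1, Atf3 and Ier2, taken by gene symbol from the 30125 genes listed in any of 3 RNA-seq tables of mouse nephron progenitor cells (NPCs). Each of the 10 was found once in each table. NPCs are the mesenchymal cells of the fetal kidney that give rise to nephrons. They were isolated from E16.5 kidneys by digestion and magnetic depletion of other cells, and were grown in the defined medium NPEM. CHIR, a GSK3 inhibitor that stabilises β-catenin, was given at 0 (no CHIR), 1.25 (low CHIR) or 5 µM (high CHIR), where low CHIR keeps the cells proliferating as progenitors and high CHIR brings on differentiation. Per the paper, RNA was taken a day after the cells were set to these doses, so the first minutes and hours are not covered.

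The wild-type table held 3 libraries at each of the 3 doses. The Ctnnb1 table held NPCs of the Cas9-eGFP genotype that received either a GFP sgRNA (control) or Ctnnb1 sgRNAs, and NPCs homozygous for a conditional allele of the β-catenin gene Ctnnb1, labelled B-catenin_c_c, that either received Cre mRNA or did not, with 2 libraries of each at low and at high CHIR. The Tcf/Lef table held Cas9-eGFP NPCs with a GFP sgRNA (3 libraries at low and 3 at high CHIR) or with sgRNAs against the β-catenin partners Tcf7l1, Tcf7l2, Tcf7 and Lef1 (2 at low and 3 at high CHIR). All groups of these last 2 tables, controls included, were kept in low CHIR first, transfected together with mCherry mRNA, lifted with trypsin and sorted for mCherry, so each library is a pool of transfected cells and not a clone. Per the study's methods, cells of the Tcf/Lef table were cultured for longer after transfection than those of the Ctnnb1 table. The 3 tables were normalised separately, and every test was made within a table. Values are normalised counts, in which the reads of a gene were divided by the size factor of the library. A gene was tested where its mean over a table was at least 10, and was called changed at an adjusted p (limma, Benjamini-Hochberg over all genes tested) below 0.05 with a log2 fold change of at least 0.5 in size. Fold changes are on the log2(normalised count + 1) scale, which understates those of low genes, and are given ± SE. The labels do not say whether libraries of a group came from separate animals, so the p-values measure the spread between these libraries only.

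AP-1 is a dimer of basic leucine zipper proteins. Jun proteins pair with each other or with Fos proteins, while Fos proteins need a Jun partner to bind DNA, and Atf3 can join Jun in the same way. Most of these genes are immediate early genes: growth factors, stress and handling of cells such as enzymatic dissociation switch them on within minutes through MAP kinases that act on transcription factors already in place, and their mRNAs are short-lived. Egr1, a zinc finger factor, and Ier2, a small nuclear protein, are induced in the same way without being part of AP-1. GSK3, the enzyme that CHIR blocks, is also known to phosphorylate Jun itself.

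Reads on genes ranged from 13651129 to 76071568 per library in the wild-type table, from 14537850 to 27838106 in the Ctnnb1 table and from 13089780 to 20152719 in the Tcf/Lef table. The 6 nephron progenitor markers (Six2, Cited1, Eya1, Osr1, Meox1 and Meox2) were all detected in low CHIR, and their summed level fell from 9567 to 15141 normalised counts in wild-type low CHIR to 227 to 292 in high CHIR, where Osr1 was at 0. In the GFP controls of the Tcf/Lef table that sum was 15643 to 17788 in low and 1015 to 2404 in high CHIR. In bulk RNA, fewer cells of a type and less RNA per cell cannot be told apart. The summed level of 5 endothelial markers was 76.6 to 784 in wild-type high CHIR against 20.4 to 35.5 in low CHIR. Tek made up most of that sum in 2 of the 3 high-CHIR libraries (769 and 586), while Cdh5 did not exceed 6.72 and Tie1 was at 0. The sum of 5 blood and macrophage markers was lower in high than in low CHIR (227 to 337 against 714 to 856), as was that of 7 stromal markers (3776 to 11174 against 10984 to 16368), and that of 4 ureteric epithelial markers was higher (1689 to 2170 against 363 to 1135). Those 4 were Ret, Wnt11 and the keratins Krt8 and Krt18. Lyz2 made up most of the wild-type blood sum, at 176 to 262 in high and 595 to 746 in low CHIR. The ureteric markers Wnt9b and Aqp2 were not listed in the wild-type and Ctnnb1 tables, and Aqp2 was not listed in the Tcf/Lef table. In the GFP controls of the Tcf/Lef table the endothelial sum was 98.9 to 212 in high against 27.7 to 41.6 in low CHIR (51.3 to 83.1 with Tcf/Lef sgRNAs in high CHIR). Tek made up most of the sum in these high-CHIR controls (72.5, 172 and 172). Pecam1 overlapped between doses, at 16.5, 32.4 and 10.6 in high and 12.2, 18.8 and 19.0 in low CHIR. The ureteric sum was there 92.5 to 162 against 15.8 to 55.0, and it was 196 to 280 against 56.3 to 93.4 in the GFP controls and 197 to 219 against 62.2 to 85.2 in the no-Cre controls of the Ctnnb1 table. The part of these shifts in the results below was not tested. A single library of the Tcf/Lef table stood apart, GFP control replicate 1 in high CHIR, with a blood sum of 2835 against at most 84.8 in every other library of that table, of which Lyz2 was 2474. Ctnnb1 itself was lower with its sgRNAs in high CHIR (log2 fold change −0.89 ± 0.23, adjusted p = 0.0429) and was not called in low CHIR (−1.16 ± 0.23, adjusted p = 0.252). With Cre it was not called, and since gene-level reads outside the removed exons remain, that checks nothing. Of the 4 targets of the Tcf/Lef sgRNAs in high CHIR, Tcf7 mRNA was lower (−1.64 ± 0.31, adjusted p = 0.0175) and Lef1 was called only with replicate number as a block (−2.12, adjusted p = 0.131 without and 0.0476 with it). Tcf7l1 (0.15 ± 0.19) and Tcf7l2 (−0.35 ± 0.22) were not called, so that loss of these 2 factors is not shown by their mRNA. The paper judged removal by protein instead. Its staining showed partial loss of each of the 4 factors with individual gRNAs, and reduced β-catenin with Ctnnb1 sgRNAs and with Cre.

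In low-CHIR wild-type cells, Ier2 had the highest level per kilobase of exon, with a mean of 1467 normalised counts per kb, followed by Egr1 at 380, Jun at 234, Junb at 178, Fos at 117 and Jund at 116. Atf3 (34.6), Fosl2 (17.4), Fosb (1.44) and Fosl1 (1.12) were lower. Given the spread between libraries, Fos and Jund cannot be ordered, nor can Egr1 against its neighbours, since Egr1 ranged from 87.2 to 751 per kb over the wild-type libraries. In high CHIR, Jun was second to Ier2 (728 against 1848 per kb). Fosl1 stayed below the test limit in all 3 tables and Fosb below it in the Ctnnb1 table, so 9, 8 and 9 members were tested in the wild-type, Ctnnb1 and Tcf/Lef tables. Fosb passed that limit through its high-CHIR libraries alone (group means of 28.0 in wild-type cells and 20.3 and 21.1 in the Tcf/Lef table, and below 10 in all other groups of these tables).

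Jun, Fosl2, Atf3 and Jund rose from low to high CHIR in wild-type NPCs, and the other 5 tested members were not called against low CHIR. These 4 of 9 stand beside 10.4% of all genes called in that comparison, and no member was called lower. The median log2 fold change of the 9 was 1.09, against 0.01 for all 17411 genes tested.

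Of the genes of the Jun proteins, the DNA-binding core of AP-1, Jun gave the largest mRNA counts. It was 777, 759 and 701 in the 3 low-CHIR libraries and 2353, 1854 and 2762 in high CHIR. Every high-CHIR library was above every low-CHIR library, and Jun rose by 1.62 ± 0.35 on the log2 scale (adjusted p = 0.0143). Jund, the family member usually present in resting cells, was 254, 203 and 125 in low CHIR and 402, 461 and 335 in high CHIR. It too did not overlap between doses and rose by 1.09 ± 0.28 (adjusted p = 0.0351). Junb, often an antagonist of Jun, was 440, 514 and 274 in low CHIR and 696, 430 and 450 in high CHIR. The doses overlapped and Junb was not called (0.37 ± 0.28, adjusted p = 0.458). Jun is a gene of a single exon at chr4:95049034-95052222 on the minus strand of GRCm38, and its exon overlaps the antisense gene Junos. Jund (chr8:70698949-70700616, plus strand) overlaps the antisense gene Gm11175, and Junb (chr8:84974484-84978718, minus strand) overlaps an exon of Prdx2. The library kit does not mark strand, so reads in such shared stretches cannot be told apart.

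Among the genes of the Fos proteins, the obligate partners of Jun, only Fosl2 was called. Its protein lacks the strong activation domain of Fos, and the gene lies at chr5:32135801-32157842 on the plus strand. Its counts were 260, 132 and 114 in low CHIR and 452, 482 and 836 in high CHIR. The doses did not overlap and Fosl2 rose by 1.84 ± 0.33 (adjusted p = 0.00621), the largest change of any tested member in this comparison. Fos, the founding member, was 164, 510 and 153 in low CHIR and 575, 392 and 331 in high CHIR. Low-CHIR replicate 2 lay inside the high-CHIR range, and Fos was not called (0.84 ± 0.43, adjusted p = 0.26). Without that library Fos was called (1.40 ± 0.30, adjusted p = 0.0246) and Jund was not (1.15 ± 0.33, adjusted p = 0.0782). The mRNAs of the other Fos genes were scarce. Fosb was 1.31, 20.9 and 4.79 in low and 56.0, 22.3 and 5.61 in high CHIR, and was not called (1.64 ± 1.03, adjusted p = 0.376). Fosl1, whose exons overlap Ccdc85b, was 1.31, 1.90 and 3.59 in low and 19.1, 5.58 and 11.2 in high CHIR, without overlap but below the test limit.

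Atf3, a stress-induced partner of Jun, was 73.6, 91.1 and 58.7 in low CHIR and 230, 119 and 285 in high CHIR. No low-CHIR library reached the lowest high-CHIR library, and Atf3 rose by 1.42 ± 0.35 (adjusted p = 0.0285). Egr1 was 482, 3367 and 1265 in low CHIR and 1088, 691 and 1371 in high CHIR. Low-CHIR replicate 2 was its highest library and Egr1 was not called (−0.33 ± 0.59, adjusted p = 0.782). Ier2 was 1911, 3138 and 1650 in low CHIR against 3219, 2539 and 2680 in high CHIR, with overlap and no call (0.38 ± 0.24, adjusted p = 0.361). The same low-CHIR replicate 2 was the highest of its group for Fos, Fosb, Junb, Egr1, Atf3 and Ier2. Counting Fosl1, 5 of the 10 members were higher in every high-CHIR library than in every low-CHIR library (4 of the 9 tested), beside 14.8% of all tested genes. With each library left out in turn, Fosl2 was called in 6 of 6 fits and Jun in 5 (not without low-CHIR replicate 3, adjusted p = 0.0607). Atf3 and Jund were each called in 2 of 6, with adjusted p of 0.00749 to 0.12 and 0.0299 to 0.129, and the call of Atf3 was kept without high-CHIR or low-CHIR replicate 2 and that of Jund without high-CHIR replicate 3 or low-CHIR replicate 1.

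**Figure D1:**
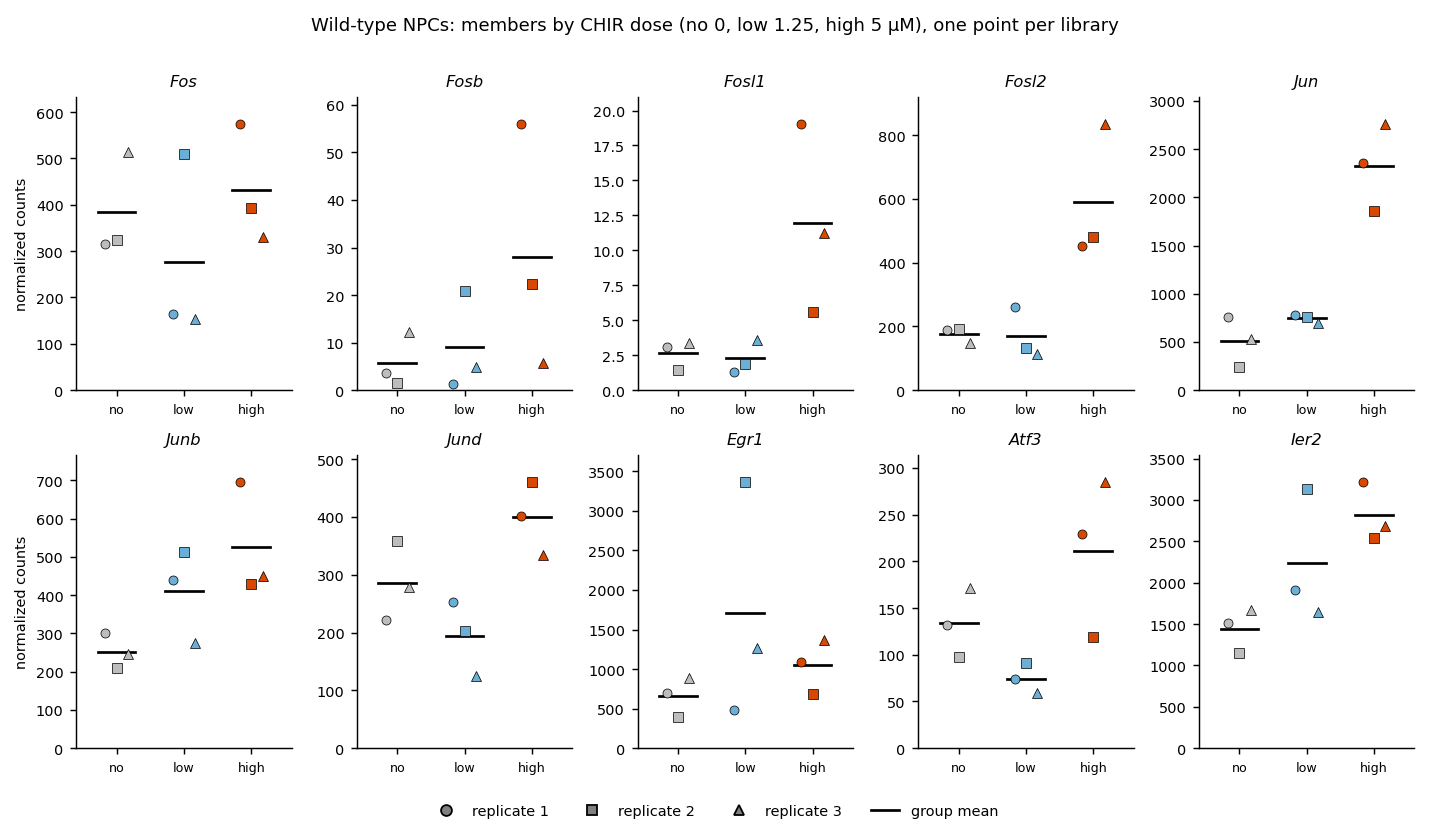
Normalised counts (vertical axis, linear, from 0) of the 10 members in wild-type NPCs by CHIR dose (horizontal axis, no, low and high), with 1 point per library, shaped by replicate, and a bar at the group mean. High CHIR lies above low CHIR without overlap for Fosl1, Fosl2, Jun, Jund and Atf3, while low-CHIR replicate 2 reaches 3367 for Egr1 and 510 for Fos.

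The promoters of the 3 called genes with the largest changes above, and of Fos, are shown as the sequences in which regulatory motifs were looked for. They run from 250 bases before to 50 bases after the RefSeq start (GRCm38.p6), 5′ to 3′ on the strand of the gene, and were taken for 7 of the 10 members (not for Fosl1, Egr1 and Ier2). Capitals mark a motif that was found.
Jun promoter, chr4:95052173-95052472, minus strand: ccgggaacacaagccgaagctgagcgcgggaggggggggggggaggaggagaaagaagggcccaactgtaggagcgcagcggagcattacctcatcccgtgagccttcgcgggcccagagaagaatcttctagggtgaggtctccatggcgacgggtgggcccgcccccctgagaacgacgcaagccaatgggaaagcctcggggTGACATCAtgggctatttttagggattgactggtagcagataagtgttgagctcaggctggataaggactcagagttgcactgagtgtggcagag
Fosl2 promoter, chr5:32136222-32136521, plus strand: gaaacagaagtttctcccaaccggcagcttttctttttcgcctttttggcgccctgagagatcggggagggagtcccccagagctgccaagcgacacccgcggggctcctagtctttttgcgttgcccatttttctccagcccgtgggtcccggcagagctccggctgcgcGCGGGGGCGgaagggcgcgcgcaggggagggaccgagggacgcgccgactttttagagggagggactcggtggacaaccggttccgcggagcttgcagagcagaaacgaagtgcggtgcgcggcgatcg
Atf3 promoter, chr1:191183284-191183583, minus strand: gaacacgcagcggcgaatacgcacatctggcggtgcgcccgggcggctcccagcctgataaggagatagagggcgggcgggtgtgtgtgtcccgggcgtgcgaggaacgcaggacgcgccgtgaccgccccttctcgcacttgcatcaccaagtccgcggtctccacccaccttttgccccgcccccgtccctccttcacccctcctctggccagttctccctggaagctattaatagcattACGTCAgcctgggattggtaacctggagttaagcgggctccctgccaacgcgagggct
Fos promoter, chr12:85473640-85473939, plus strand: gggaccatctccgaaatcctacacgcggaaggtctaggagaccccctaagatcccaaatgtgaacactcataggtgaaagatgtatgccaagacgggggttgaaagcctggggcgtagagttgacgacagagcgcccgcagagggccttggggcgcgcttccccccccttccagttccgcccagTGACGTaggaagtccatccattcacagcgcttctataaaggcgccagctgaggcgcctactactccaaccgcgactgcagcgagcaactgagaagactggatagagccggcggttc
In all, 7 motifs were searched on both strands. The Jun window held TGACATCA, a variant of the cAMP response element, at −45 from the start, which 3.62% of 32851 RefSeq promoter windows of the same length also held. TGACGT, a shorter part of the cAMP response element, was in the windows of Fos (at −66) and Atf3 (at −8, on the opposite strand) and in 7.51% of all windows. GCGNGGGCG, an EGR site, was in the windows of Fosl2 (at −79) and Fosb (at −50) and in 5.55% of all windows. The full element TGACGTCA, which contains that shorter part (1.79% of all windows), the AP-1 site TGANTCA (7.81%), the TCF/LEF core CTTTGAT (3.73%) and the CArG box (1.63%) were not in any of the 7 windows, which says only that these letters are not in those 300 bases. The Jund window (chr8:70697489-70697788) ends before the gene start given above (70698949), so it may miss the promoter of that gene. TGACATCA and TGACGT were added to the search after the sequences had been seen. A match is a string of letters and not a shown binding site.

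Taking CHIR away altogether left the members without a call. In no CHIR against low CHIR, 0 of 9 tested members were called, against 4.97% of all genes, although 3 had an unadjusted p below 0.05 by limma, and edgeR and DESeq2 also called 0. Atf3 was 132, 98.1 and 171 in no CHIR, above all 3 low-CHIR values (0.82 ± 0.35, adjusted p = 0.206). Junb (301, 209 and 246 in no CHIR) and Ier2 (1514, 1152 and 1672) had lower means than in low CHIR, with fold changes of −0.66 ± 0.28 and −0.59 ± 0.24 on the log2 scale, overlap and adjusted p of 0.189 and 0.176. Jun was 764, 237 and 526 in no CHIR (−0.70 ± 0.35, adjusted p = 0.267).

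Across the whole dose range, from no to high CHIR, 4 of 9 members rose and none fell, beside 23.4% of all genes called. Jun rose by 2.32 ± 0.35 (adjusted p = 0.00108), Fosl2 by 1.68 ± 0.33 (adjusted p = 0.00523), Junb by 1.04 ± 0.28 (adjusted p = 0.0206) and Ier2 by 0.97 ± 0.24 (adjusted p = 0.0138). For each of these 4 every high-CHIR library was above every no-CHIR library, beside 19% of all tested genes. Leaving out single libraries kept Jun and Fosl2 called in 6 of 6 fits, Ier2 in 5 (not without no-CHIR replicate 2) and Junb in 3 (not without high-CHIR replicate 1 or no-CHIR replicates 2 and 3). Jund and Atf3, called against low CHIR, were not called here (0.50 ± 0.28 and 0.60 ± 0.35, adjusted p = 0.233 and 0.246). Their no-CHIR means, 286 and 134, lay between those of low CHIR (194 and 74.5) and high CHIR (399 and 211). Jun and Fosl2 were thus the members called in both comparisons with high CHIR, which share the high-CHIR libraries. Fos was 315, 323 and 514 in no CHIR and did not differ detectably from high CHIR (0.17, 95% interval −0.78 to 1.12).

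Low and high CHIR were also compared in 3 further sets of control cells, all transfected and sorted. Jun had a positive fold change in each, and was called in 2 of the 3. It was 102 and 146 in low and 479 and 580 in high CHIR in the GFP controls of the Ctnnb1 table. The change of 2.10 ± 0.61 missed the call (adjusted p = 0.0542). In the no-Cre controls Jun was 77.7 and 213 in low and 630 and 531 in high CHIR, and was called (2.16 ± 0.61, adjusted p = 0.0455). Jun was 220, 280 and 174 in low and 537, 486 and 277 in high CHIR in the GFP controls of the Tcf/Lef table. There the highest low-CHIR and lowest high-CHIR library overlapped slightly, and Jun was called (0.92 ± 0.26, adjusted p = 0.0361). The call of Jun in the no-Cre controls was lost without either no-Cre replicate 1 library and without high-CHIR replicate 2 (adjusted p of 0.125 to 0.322 in these 3 fits).

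Fosl2 and Atf3 also had positive fold changes in wild-type cells and in all 3 of these sets. So did Jund and Ier2, with 0.82 and 0.93 in the GFP controls of the Ctnnb1 table. Their values were 0.11 and 0.42 in the no-Cre controls and 0.50 and 1.00 in the GFP controls of the Tcf/Lef table. Fosl2 was 133 and 176 in low and 399 and 245 in high CHIR in the GFP controls of the Ctnnb1 table (1.02 ± 0.36, adjusted p = 0.111). It was 180 and 116 in low and 274 and 215 in high CHIR in the no-Cre controls (0.74 ± 0.36, adjusted p = 0.239). The GFP controls of the Tcf/Lef table had 168, 136 and 51.0 in low and 346, 360 and 107 in high CHIR (1.17 ± 0.55, adjusted p = 0.185), and replicate 3 was the lowest at both doses. Atf3 was 48.7 and 32.5 in low and 243 and 190 in high CHIR in the GFP controls of the Ctnnb1 table (2.40 ± 0.98, adjusted p = 0.178). In the no-Cre controls it was 111 and 20.1 in low and 578 and 38.4 in high CHIR, so that each replicate number was higher in high CHIR but the groups overlapped (1.63 ± 0.98, adjusted p = 0.354). High-CHIR replicate 2 and replicate 1 each decided that value, which was 3.57 (adjusted p = 0.0219) without the former and −0.31 without the latter. Atf3 was 25.7, 37.5 and 29.4 in low and 81.6, 133 and 72.3 in high CHIR in the GFP controls of the Tcf/Lef table, with no overlap and a call (1.56 ± 0.38, adjusted p = 0.015).

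The fold change of Fos differed in sign between the sets, and in the sorted controls it was called in the Tcf/Lef table alone. Fos was 108, 123 and 127 in low CHIR and 466, 701 and 495 in high CHIR in the GFP controls of the Tcf/Lef table. There Fos rose by 2.19 ± 0.32 (adjusted p = 0.000676), the largest change of any tested member there. The GFP controls of the Ctnnb1 table had Fos at 129 and 339 in low and 247 and 236 in high CHIR, which overlapped (0.21, 95% interval −0.70 to 1.12). In the no-Cre controls it was 471 and 606 in low and 434 and 309 in high CHIR, every high-CHIR library being below every low-CHIR library, without a call (−0.54, 95% interval −1.45 to 0.37). Fosb, below the test limit in the Ctnnb1 table, was 15.9 and 14.1 in low and 0.749 and 2.87 in high CHIR in its GFP controls, lower without overlap. In the GFP controls of the Tcf/Lef table Fosb was 4.89, 9.87 and 3.46 in low and 19.0, 30.3 and 11.7 in high CHIR, higher without overlap (1.60 ± 0.61, adjusted p = 0.102). The difference between sets was not tested, since the tables were normalised apart and their cells were cultured for different times after transfection.

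Counted over members, 0 of 8 were called in the GFP controls of the Ctnnb1 table, beside 7.51% of all genes, with 4 members at an unadjusted p below 0.05 by limma, 0 called by edgeR and 2 by DESeq2. In the no-Cre controls 1 of 8 was called, beside 8.05% of all genes. With replicate number as a block, Jun, Atf3 and Ier2 were called higher in those GFP controls, beside 2562 of 16780 genes. Jun was then called higher and Egr1 lower in the no-Cre controls, beside 2661 of 16780 genes. The count was 3 of 9 (Fos, Atf3 and Jun) in the GFP controls of the Tcf/Lef table, beside 14.9% of all genes. In that table libraries of the same replicate number deviated together, and taking that number as a blocking factor gave calls for 7 of 9, adding Fosl2 (adjusted p = 0.00232), Egr1 (0.0168), Ier2 (0.0205) and Fosb (0.0233), the last admitted to the test by its high-CHIR libraries, and leaving Junb (0.0735) and Jund (0.232) uncalled. The same block raised the share of all genes called to 20.9%. Leaving out GFP control replicate 1 in high CHIR, the library with the high blood marker sum, left Fos (2.30 ± 0.36, adjusted p = 0.00193), Atf3 (1.65 ± 0.44, adjusted p = 0.0291) and Egr1 (1.18 ± 0.35, adjusted p = 0.0478) called and Jun not (0.73 ± 0.28, adjusted p = 0.117). Without high-CHIR replicate 2 or without low-CHIR replicate 1 Fos alone was called, without low-CHIR replicate 3 Fos and Atf3 were, and without high-CHIR replicate 3 the count was 5.

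Egr1 and Ier2, which overlapped between doses in wild-type cells, did not overlap in the GFP controls of the Tcf/Lef table. Egr1 was 1442, 1310 and 855 in low and 1821, 3504 and 2030 in high CHIR (1.00 ± 0.32, adjusted p = 0.0561). Ier2 was 519, 466 and 441 in low and 816, 1196 and 873 in high CHIR (1.00 ± 0.34, adjusted p = 0.0672). Junb was 55.0, 52.3 and 29.4 in low and 109, 109 and 56.3 in high CHIR (0.98 ± 0.37, adjusted p = 0.1). Jund overlapped, at 149, 156 and 81.3 in low and 175, 297 and 104 in high CHIR (0.50 ± 0.38, adjusted p = 0.429). Members higher in every high-CHIR library than in every low-CHIR library numbered 6 of the 9 tested here, beside 14.1% of all tested genes. They were Fos, Junb, Egr1, Atf3, Ier2 and Fosb, the last admitted to the test by its high-CHIR libraries and so no independent support. The count was 6 of 8 in the GFP controls of the Ctnnb1 table, beside 29.3%, and 2 of 8 (Jun and Fosl2) in the no-Cre controls, beside 22.2%.

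**Figure D2:**
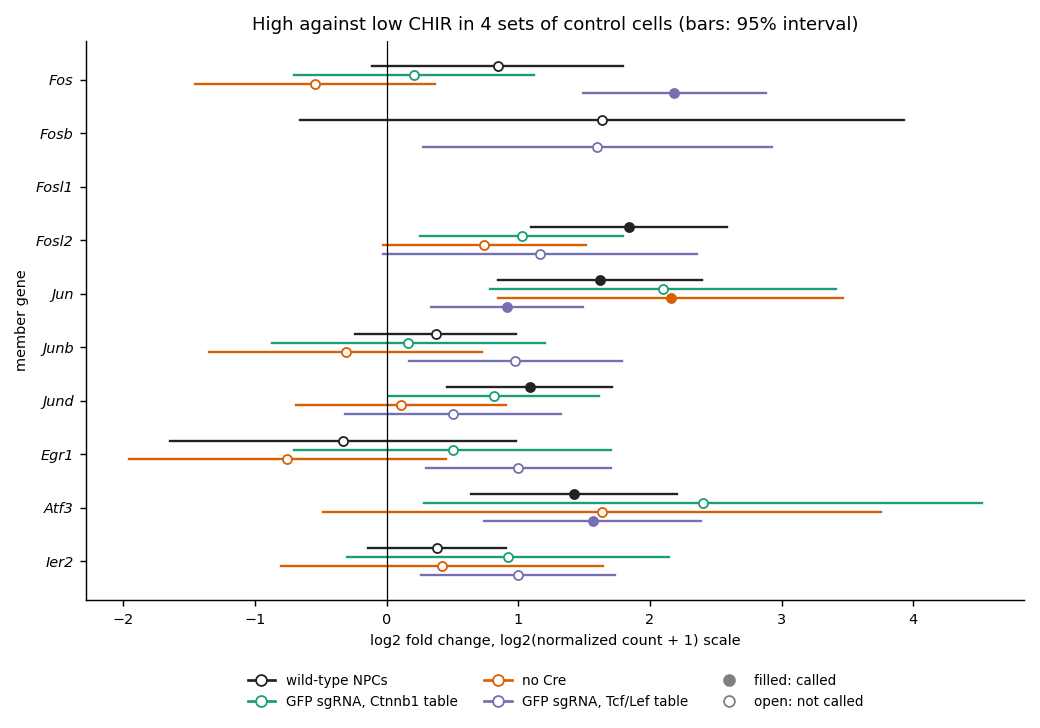
Log2 fold change of high against low CHIR (horizontal axis) for each tested member (vertical axis) in 4 sets of control NPCs, with 95% intervals from limma and filled points where the change was called. Jun, Fosl2, Atf3, Jund and Ier2 lie to the right of 0 in all 4 sets, while Fos runs from −0.54 in the no-Cre controls to 2.19 in the GFP controls of the Tcf/Lef table.

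Removing β-catenin did not produce a called change of any member in the fit without a replicate block. With Ctnnb1 sgRNAs in high CHIR, 0 of 8 members were called against GFP sgRNA, beside 5.09% of all genes, and 0 had an unadjusted p below 0.05 by limma, edgeR and DESeq2 calling 0 as well. All 8 had a fold change below 0, with a median of −0.27. Jun was 277 and 398 with Ctnnb1 sgRNAs against 479 and 580 with GFP sgRNA, without overlap (−0.66, 95% interval −1.98 to 0.65). Fosl2 was 229 and 161 against 399 and 245 (−0.70, interval −1.47 to 0.07), and Jund was 118 and 85.4 against 169 and 145 (−0.63, interval −1.43 to 0.17). These 3 of 8 members were lower in both sgRNA libraries than in both controls, as were 31.2% of all tested genes. Atf3 was 169 and 231 against 243 and 190 (−0.12 ± 0.98), and Ier2 was 2230 and 1767 against 2118 and 2173 (−0.11, interval −1.33 to 1.11). The 95% intervals of all 5 hold both no change and a drop of more than 1 on the log2 scale.

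With Cre in high CHIR, 0 of 8 members were called against no Cre, beside 8.65% of all genes, again with 0 at an unadjusted p below 0.05 by limma and 0 by edgeR and DESeq2. Of the 8, 5 had a fold change above 0, with a median of 0.21. These 5 (Egr1, Fos, Atf3, Fosl2 and Junb) had the opposite sign in the sgRNA cells. Fos was 620 and 767 with Cre against 434 and 309 without, which did not overlap (0.91 ± 0.42, adjusted p = 0.242). Egr1 was 5001 and 1849 with Cre against 2345 and 751 without, so that the Cre library of each replicate number was higher but the groups overlapped (1.20 ± 0.56, adjusted p = 0.244). With replicate number as a block in limma, Egr1 and Fos were called higher (adjusted p = 0.000889 and 0.0483), beside 2639 of 16780 genes. Jun was 221 and 631 with Cre against 630 and 531 without (−0.63, interval −1.94 to 0.68). Fosl2 had 213 and 410 against 274 and 215 (0.28, interval −0.49 to 1.06), and Atf3 and Junb had fold changes of 0.32 ± 0.98 and 0.14 ± 0.48. Whether the effects differ between the 2 ways of removal was not tested.

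In low CHIR the members were again without a call. With Ctnnb1 sgRNAs 0 of 8 were called, beside 0.0536% of all genes, and with Cre 0 of 8, beside 0.328%, with 0 at an unadjusted p below 0.05 by limma in either, and 0 by edgeR and DESeq2. Fosl2 was 94.2 and 97.3 with Ctnnb1 sgRNAs against 133 and 176 with GFP sgRNA, lower in both libraries (−0.67, interval −1.44 to 0.10). Jun was 105 and 116 against 102 and 146 (−0.15, interval −1.46 to 1.17). The change of the CHIR response with removal, tested as an interaction, was not called for any of the 8 members in either system (0.518% of all genes with Ctnnb1 sgRNAs and 0.995% with Cre), also at an unadjusted p below 0.05. For Jun that interaction was −0.52 (interval −2.37 to 1.34) with Ctnnb1 sgRNAs and −0.80 (interval −2.66 to 1.05) with Cre. Fosl1 was listed at 0 in both Cre libraries in low CHIR, where 3 reads would be 3.10 and 3.86 normalised counts, and at 4.44 and 0.916 without Cre.

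Both replicates of the B-catenin_c_c line differed in the same direction in every group for 4 of the members. Ier2 was 1728 and 577 in no-Cre low CHIR, 2215 and 804 in no-Cre high CHIR, 1436 and 736 in Cre low CHIR and 2084 and 815 in Cre high CHIR, for replicates 1 and 2. Replicate 1 was thus above replicate 2 in all 4 groups, by ratios of 2.99, 2.75, 1.95 and 2.56. Egr1 (3556 and 1409, 2345 and 751, 4164 and 2218, and 5001 and 1849 in the same order) was 1.88 to 3.12 times higher in replicate 1. Junb was 1.43 to 2.94 times and Atf3 1.28 to 15.1 times higher, Atf3 being most unequal in no-Cre high CHIR (578 and 38.4). These 4 of the 8 tested members were higher in replicate 1 in 4 of 4 groups, beside 19.2% of all genes. Jun went the other way in 3 of 4 groups, with ratios of 0.248 to 1.19, and so did Fos, with 0.712 to 1.41. Whether the replicate numbers stand for a shared litter or day is not said in the labels, and the cause of the shift was not tested.

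**Figure D3:**
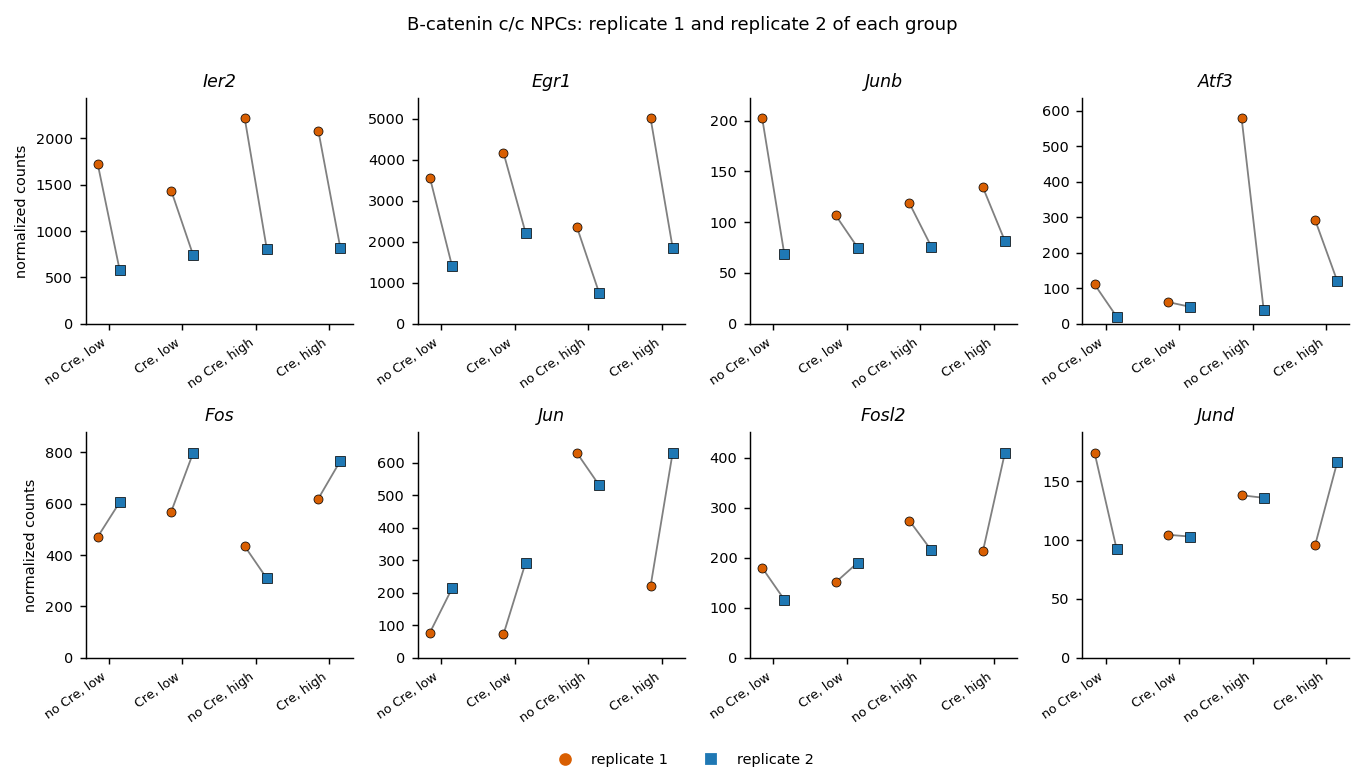
Normalised counts (vertical axis, linear, from 0) of the 8 tested members in the 4 groups of B-catenin_c_c NPCs (horizontal axis), with replicate 1 (circle) and replicate 2 (square) of each group joined by a line. Ier2, Egr1, Junb and Atf3 lie higher in replicate 1 than in replicate 2 in each of the 4 groups, and Jun does so in no-Cre high CHIR alone.

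With sgRNAs against the 4 Tcf/Lef factors in high CHIR, 0 of 9 members were called, beside 2.54% of all genes, with 3 members (Jund, Junb and Fos) at an unadjusted p below 0.05 by limma and 0 called by edgeR and DESeq2. Of the 9, 8 had a fold change below 0, with a median of −0.38. Fos was 202, 536 and 325 with the Tcf/Lef sgRNAs against 466, 701 and 495 with GFP sgRNA. Each replicate number was lower with the Tcf/Lef sgRNAs, but the groups overlapped (−0.73 ± 0.32, adjusted p = 0.32). Jund was 81.7, 107 and 74.2 against 175, 297 and 104 (−1.01 ± 0.38, adjusted p = 0.226), and Junb was 33.0, 47.8 and 69.4 against 109, 109 and 56.3 (−0.86 ± 0.37, adjusted p = 0.317). Jund came nearest to a call with the replicate block (adjusted p = 0.0519). Jun was the exception in sign, at 369, 499 and 480 against 537, 486 and 277 (0.10, interval −0.48 to 0.67).

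For Fos the change of the CHIR response with Tcf/Lef sgRNAs was −1.25 ± 0.48, with an adjusted p of 0.796. No member's interaction was called, beside 0.126% of all genes, and Fos alone had an unadjusted p below 0.05 by limma. In low CHIR 0 of 9 members were called, beside 0.0063% of all genes, with 0 at an unadjusted p below 0.05. Fos was 217 and 134 in low CHIR with Tcf/Lef sgRNAs, above the 3 controls by 0.52 ± 0.36 (adjusted p = 0.904), and Jun was 229 and 302 (0.25, interval −0.39 to 0.90).

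**Figure D4:**
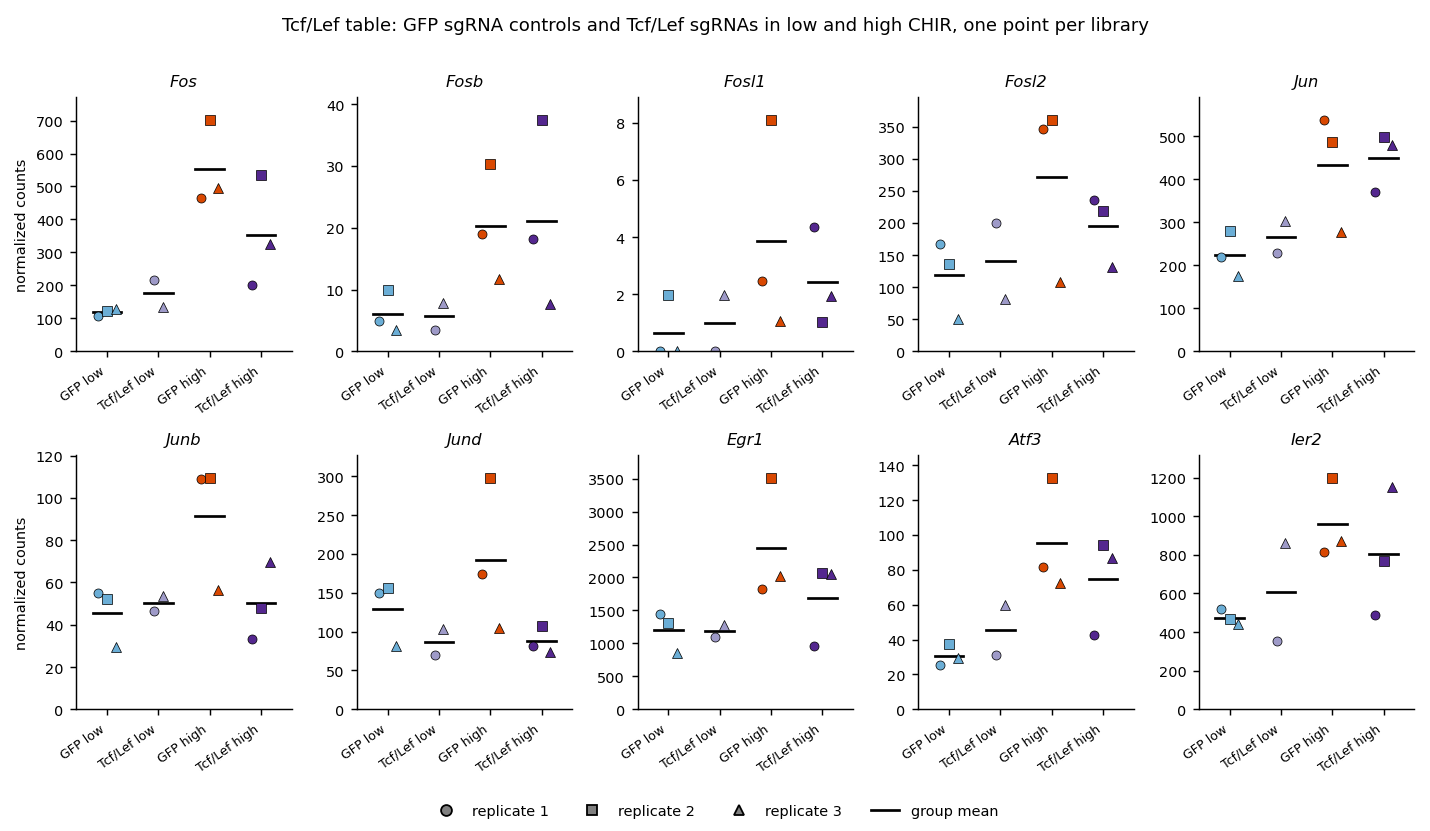
Normalised counts (vertical axis, linear, from 0) of the 10 members in the Tcf/Lef table for GFP sgRNA and Tcf/Lef sgRNAs in low and high CHIR (horizontal axis), with 1 point per library and a bar at the group mean. Fos lies at 108 to 127 in low-CHIR controls and at 466 to 701 in high-CHIR controls, and the Tcf/Lef sgRNA libraries in high CHIR span 202 to 536.

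**Figure D5:**
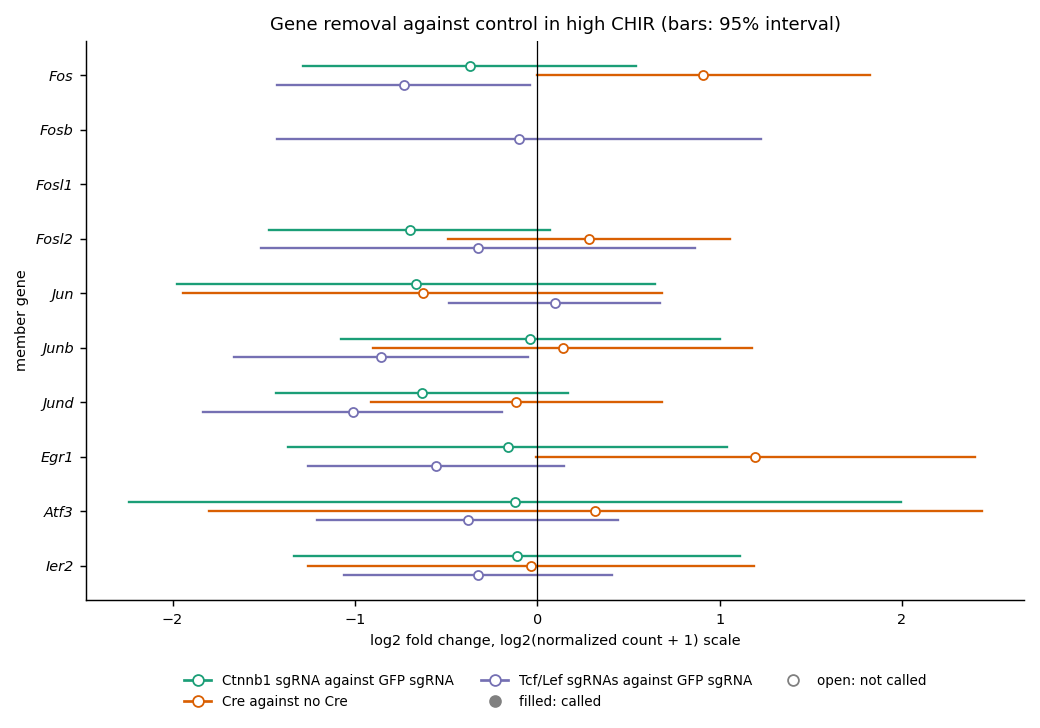
Log2 fold change of removal against control in high CHIR (horizontal axis) for each tested member (vertical axis), with 95% intervals from limma, for Ctnnb1 sgRNAs, Cre and Tcf/Lef sgRNAs. All points are open (not called), and Fos and Egr1 lie right of 0 with Cre and left of 0 with either sgRNA set.

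The members were among the more variable genes between replicates. The pooled SD within groups (log2 scale) was 0.93 for Egr1 and 0.65 for Fos in the wild-type table, where the median of all tested genes was 0.33, and these ranked at the 91.3 and 81.0 percentile of tested genes. Atf3 reached an SD of 1.23 in the Ctnnb1 table, at the 98.1 percentile. Ier2 was near the median in wild-type cells (0.34, 50.9 percentile) and at the 87.7 percentile in the Ctnnb1 table (0.71). All 26 tested values of the members over the 3 tables were above the median SD of their table.

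After each value was set against its group mean, Atf3 and Ier2 moved together over the 36 libraries (Pearson r = 0.81), as did Junb and Ier2 (0.78), Egr1 and Ier2 (0.74) and Egr1 and Atf3 (0.67). Fosl2 went with Jund (0.62). Jun and Fos stood outside that set, since the highest r of Jun with a member was 0.30 (with Fos) and its r with Ier2 was −0.32, while Fos reached 0.41 with Egr1. These are descriptions without a test, and both values of a pair come from the same library and share its depth and size factor. Among 14952 genes tested in all tables, the genes most like Egr1 in this measure were Tspyl5 (0.91), Acbd4 (0.85) and Ssh3 (0.83), those most like Jun were Caprin1 (0.89), Mtmr4 (0.85) and Ncbp1 (0.85), and those most like Junb were Patz1 (0.87), Zkscan17 (0.83) and Rnf31 (0.83). Fosl2 was most like Ank (0.86), Rora (0.86) and Inpp5a (0.84). Fos had lower values, among them Kif3a (0.62) and Eif5 (0.60).

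Other genes of the pathway were followed through 6 lists. Of the 15 tested AP-1 and ATF partners, 4 rose and 0 fell in wild-type high against low CHIR, beside 10.4% of all genes called, with a median of 0.05 against 0.01 for all genes. Among them were Maf (154 to 840, 2.25 ± 0.48), Mafg (860 to 4258, 1.86 ± 0.51) and Crem (174 to 430, 1.16 ± 0.33), of which Mafg, a small Maf protein that pairs with larger bZIP factors, was also called in the GFP controls of the Ctnnb1 table (1.03 ± 0.21) and the no-Cre controls (0.91 ± 0.21). Mafk was called in the GFP controls of the Tcf/Lef table (1.08 ± 0.19), as 1 of 14 tested, beside 14.9% of all genes. With the replicate block 3 rose and 1 fell there, beside 20.9%.

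Of 29 other immediate early genes, 4 rose and 0 fell in wild-type high against low CHIR, 7 rose and 2 fell in the GFP controls of the Ctnnb1 table, 4 rose and 2 fell in the no-Cre controls, and 6 rose and 2 fell in the GFP controls of the Tcf/Lef table (8 and 6 with the replicate block). The shares of all genes called in these 4 sets were 10.4%, 7.51%, 8.05% and 14.9% (20.9% with the block), so the 4 of 29 in wild-type cells were near the share called in either direction. Those 4 all rose, beside 928 of 17411 genes called higher, and 11 of the 29 had an unadjusted p below 0.05 by limma. The median log2 fold change of the list in the 4 sets was 0.60, 0.54, 0.06 and 0.37, against 0.01 for all genes in wild-type cells. Gadd45g, a stress-inducible regulator of MAP kinase signalling, rose in all 4 sets, by 2.77 ± 0.44 (666 to 5200), 4.32 ± 0.32 (133 to 2665), 3.68 ± 0.32 (223 to 2875) and 3.32 ± 0.34 (175 to 1689). Gadd45g fell when β-catenin was removed in high CHIR, with log2 fold changes of −1.90 ± 0.32 with Ctnnb1 sgRNAs (adjusted p = 0.004) and −1.71 ± 0.32 with Cre (adjusted p = 0.0044), and its interaction was called in both systems (−2.50 ± 0.46 and −2.67 ± 0.46). Egr3, a relative of Egr1, rose in the GFP controls of the Tcf/Lef table (19.8 to 213, 3.27 ± 0.60), whereas Egr2 fell in the GFP controls of the Ctnnb1 table (683 to 138, −2.30 ± 0.58). With Cre in high CHIR 8 of the 29 rose and 1 fell, beside 8.65% of all genes called, including the matricellular Ccn2 (35.9 to 451), Arc (25.5 to 198) and Ccn1 (556 to 4279). Ccn1 also rose with Ctnnb1 sgRNAs (481 to 1641, 1.74 ± 0.45), where 3 rose and 1 fell, beside 5.09%. With Tcf/Lef sgRNAs in high CHIR limma called 0 of 29, with 6 at an unadjusted p below 0.05, beside 2.54% of all genes. With the replicate block 4 rose and 2 fell, beside 7.44%.

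Of 18 genes that feed back on immediate early genes, such as the MAP kinase phosphatases of the Dusp family, 4 rose and 2 fell in wild-type high against low CHIR, beside 10.4% of all genes called. Dusp8 rose (87.7 to 880, 3.09 ± 0.41) and Dusp5 fell (575 to 112, −2.40 ± 0.28). Dusp2 rose in all 4 control sets, by 1.70 ± 0.41, 2.74 ± 0.44, 1.69 ± 0.44 and 1.97 ± 0.41. It was the one gene of the list that fell in all 3 removals in high CHIR, with −1.65 ± 0.44 with Ctnnb1 sgRNAs, −1.76 ± 0.44 with Cre and −1.95 ± 0.41 with Tcf/Lef sgRNAs, so that its mean with Tcf/Lef sgRNAs was 54.1 against 234 in controls. Nab2, a corepressor that binds Egr1, fell in wild-type (1085 to 533, −1.08 ± 0.24) and no-Cre cells (711 to 242, −1.56 ± 0.28) and rose with Cre in high CHIR (242 to 549, 1.14 ± 0.28). Among the genes upstream, 1 of 21 rose in wild-type high against low CHIR (the kinase Mapk14, 0.69 ± 0.18) and 1 fell (Rps6ka1, −0.81 ± 0.19), beside 10.4% of all genes called. In the GFP controls of the Tcf/Lef table limma called 0 of 22, beside 14.9%, with 3 at an unadjusted p below 0.05. With the replicate block 1 rose and 1 fell there, beside 20.9%.

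Genes known as AP-1 targets moved in both directions. In wild-type high against low CHIR 2 of 16 rose, among them the growth factor Areg (6.59 to 87.8, 3.97 ± 0.96), and Vim fell (−2.09 ± 0.22), beside 10.4% of all genes called. The median log2 fold change of the 16 was 1.01, against 0.01 for all genes, with 8 at an unadjusted p below 0.05 by limma. The list median was 0.40 in the GFP and 0.01 in the no-Cre controls of the Ctnnb1 table, and 0.55 in the GFP controls of the Tcf/Lef table. The protease gene Mmp9 rose in all 3 sorted control sets, by 4.43 ± 0.65, 3.06 ± 0.65 and 4.62 ± 0.54, from means of 5.91, 21.2 and 7.74. Among 14 targets in the GFP controls of the Tcf/Lef table, 3 rose and 4 fell, beside 14.9% of all genes, among them Cd44 (3595 to 900.5, −2.05 ± 0.26) and Hbegf (287 to 93.3, −1.60 ± 0.21). With Cre in high CHIR 5 of 14 rose and 0 fell, beside 8.65% of all genes called (990 of 1452 higher), led by Hbegf (74.1 to 629, 3.04 ± 0.30) and Cd44 (782 to 3235, 2.05 ± 0.23), and both also rose with Ctnnb1 sgRNAs (1.53 ± 0.30 and 1.01 ± 0.23). The 12 heat-shock genes, which also respond to dissociation of tissue, had 0 calls by limma in wild-type high against low CHIR. They also had 0 in the GFP and no-Cre controls of the Ctnnb1 table. The shares of all genes called in these sets were 10.4%, 7.51% and 8.05%. Heat-shock genes at an unadjusted p below 0.05 by limma numbered 2, 1 and 0, in the same order. In the GFP controls of the Tcf/Lef table, Hsph1 and Hspa5 rose, as 2 of 12 tested, beside 14.9% of all genes called. There 5 of the 12 had an unadjusted p below 0.05 by limma.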

How the data were processed

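RNA of nephron progenitor cells was sequenced in 36 libraries of 15 groups, in 3 tables. The deposited values are read signal, in normalised counts: the authors aligned reads to a combined mouse and human genome (GRCm38 and GRCh38) with STAR, counted uniquely aligned, unambiguous reads per gene with featureCounts and divided the counts by 1 DESeq2 size factor per library. Dividing out that factor gave whole reads for 100% of values (within 0.1). The 8 further files hold the authors' fold changes and p-values, with 50 per-library columns, and were not used. Here limma 3.58.1 (limma-trend) in R 4.3.3 was fitted to log2(normalised count + 1) over all libraries of a table, for genes with a mean of at least 10. Genes sharing exons with another gene were kept and named. edgeR 4.0.16 and DESeq2 1.42.0 on the recovered reads, TMM scaling, pseudocounts of 0.5 and 5, no filter, other sample sets, a replicate block and leaving out each library were alternatives.

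The members and lists were chosen with earlier results of these data known. The 10 members were all named. List genes were named among those called, in order of the size of the change, up to 6 per list and comparison, and the 3 genes most like each member by correlation of within-group deviations. In the Tcf/Lef table same-numbered libraries deviated together (r of 0.531, 0.341 and 0.63 between doses of the GFP controls), so values with the replicate block are given beside the results of that table whose call the block changes, while the printed SE, intervals and other p-values come from the fit without it. In the Ctnnb1 table r was positive in each comparison too (0.196 to 0.491), and there the calls of members that the block changes are given. In the wild-type table same-numbered libraries did not deviate together in every pair (r of 0.147, 0.0393 and 0.0946 for high and low CHIR). The fits were tested on simulated data. Intervals are 95% intervals of the fit, and floors of 3 reads cover counting error only. Promoter sequences were from RefSeq (GRCm38.p6) and gene positions from GENCODE vM21. Some genes that the naming rule selects are counted but not reported by name here.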

Additional observations from a re-analysis of the deposited data

Results flagged for a closer look

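In different sets of cells, Fosb and Fos differed between high and low CHIR without overlap but with opposite signs. Of these differences only that of Fos in the GFP controls of the Tcf/Lef table was called in the fit without a block, and the differences between sets were not tested. With the replicate block in limma Fosb was also called there (adjusted p = 0.0233), admitted to the test by its high-CHIR libraries. In those controls 14.1% of all tested genes were higher in high CHIR without overlap. For Fosb, the means were 1.81 in high and 15.0 in low CHIR in the GFP controls of the Ctnnb1 table, and 20.3 in high and 6.07 in low CHIR in the GFP controls of the Tcf/Lef table. For Fos, the means were 372 in high and 538.5 in low CHIR in the no-Cre controls, and 554 in high and 119 in low CHIR in the GFP controls of the Tcf/Lef table. In low CHIR the mean of Fosb was 10.1 with Ctnnb1 sgRNAs against 15.0 with GFP sgRNA, and 23.7 with Cre against 7.52 without. The tables were normalised apart, and their cells were cultured for different times after transfection. Fosb did not exceed 37.4 normalised counts in either table. In the high-CHIR GFP controls of the Ctnnb1 table it was 0.749 and 2.87, where 3 reads would be 2.25 and 2.87.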

How the results depend on the processing

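Counts of members called held within 1.5 times in 126 of 135 fits with another setting and in 78 of 86 with a library left out. Most comparisons had 0 members called, and a count that stayed at 0 is among those that held. These totals therefore say little about the comparisons that had calls, whose counts follow. In wild-type high against low CHIR, 2 members were called with only the libraries compared and 1 to 4 with a library left out (2 without high-CHIR replicate 1, 1 without low-CHIR replicate 3, 4 without low-CHIR replicate 2). In high against no CHIR the range was 2 to 4. The GFP controls of the Ctnnb1 table gave 2 calls with DESeq2, 3 with the replicate block (Jun, Atf3 and Ier2) and 2 with only the libraries compared. The no-Cre controls gave 0 with edgeR, 2 with the replicate block (Jun higher and Egr1 lower) and 0 to 1 with a library left out. Cre against no Cre in high CHIR gave 2 with the block (Fos, adjusted p = 0.0483, and Egr1, adjusted p = 0.000889). The GFP controls of the Tcf/Lef table gave 5 with DESeq2, 7 with the block and 1 to 5 with a library left out. The block changed no other count of members by over 1.5 times. In the Ctnnb1 table, with 2 pairs per comparison, same-numbered libraries had a positive r in each comparison (0.196 to 0.491). The labels do not say what the shared number stands for. The cause of these changes was not tested. Egr1 in the no-Cre controls ranged from −1.57 to 0.0673 with a library left out and turned in sign without high-CHIR replicate 2.

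Over all genes, with the limma count given second, DESeq2 called 1788 against 865 in no against low CHIR, 30 against 9 and 1486 against 854 with Ctnnb1 sgRNAs in low and high CHIR, 295 against 55 with Cre in low CHIR, and 24 against 1 and 859 against 404 with Tcf/Lef sgRNAs in low and high CHIR. Its interaction counts were 212 against 87, 385 against 167 and 158 against 20 for Ctnnb1 sgRNAs, Cre and Tcf/Lef sgRNAs. The block gave 2562 against 1260 in the GFP controls of the Ctnnb1 table, 2661 against 1350 in the no-Cre controls, 21 against 9 and 2133 against 854 with Ctnnb1 sgRNAs, 513 against 55 and 2639 against 1452 with Cre, 16 against 1 and 1181 against 404 with Tcf/Lef sgRNAs, and 235, 526 and 136 for the interactions. Fits of only the libraries compared gave 1567 in no against low CHIR, 552 in the no-Cre controls, 0 and 1728 with Ctnnb1 sgRNAs, 4 and 624 with Cre, 49 for the Cre interaction and 0 for Tcf/Lef sgRNAs in low CHIR. Ctnnb1 sgRNAs in low CHIR gave 0 with TMM or a pseudocount of 0.5, and Tcf/Lef sgRNAs in low CHIR 4 without a filter. No setting moved the median of all genes by more than 0.0634 on the log2 scale. Where leaving out a library left 1 in a group of the Ctnnb1 table, that library was assumed to vary like the other groups. The spread between 2 or 3 libraries per group limits what could be called, and low counts limit Fosl1 and Fosb.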
